A study of Mus musculus with 21 samples.

Results

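The MHC class II genes were followed in skin and inguinal lymph nodes of mice that overexpress Ifnk, the gene for the type I interferon IFN-κ, in the epidermis. The 10 genes were taken by name, H2-Aa, H2-Ab1, H2-Eb1, Cd74, H2-DMa, H2-DMb1, H2-DMb2, H2-Oa, H2-Ob and Ciita, and each was found once in the skin table and once in the lymph node table. All 10 passed the filter on low counts in both tissues, where 19101 genes were tested in skin and 16173 in nodes. Skin came from 12-month-old mice and gave 3 wild-type (WT) libraries, 2 libraries of nonlesional (NL) skin and 4 libraries of lesional (L) skin, the last 2 groups from Ifnk transgenic (TG) mice. The skin-draining inguinal nodes gave 4 groups of 3 libraries, from WT and Ifnk TG mice left without irradiation or exposed to 250 mJ/cm2 UVB on 3 days per week for 2 weeks and harvested after 2 further weeks of observation. The age of the mice behind the node libraries was not given in the labels.

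In the TG mice Ifnk was driven by the keratin 14 promoter, which is active in basal keratinocytes. The transgene was made on the C57BL/6 background and crossed for several generations onto BALB/c, the strain of the WT mice. All groups therefore carried the BALB/c background, whose H2 haplotype differs from that of the C57BL/6 reference genome to which the reads were aligned. The labels gave no sex or mouse for any library, and no body site for the skin. The p-values therefore measure the spread between these samples, which may be partly technical. Whether L and NL skin came from the same mice or the same body sites was not known.

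MHC class II molecules present peptides from engulfed proteins to CD4 T cells. H2-Aa and H2-Ab1 encode the chains of the classical I-A molecule, and H2-Eb1 encodes the beta chain of I-E, whose alpha chain is encoded by H2-Ea. Cd74, the invariant chain, fills the peptide groove during assembly and guides the molecule to endosomes. There H2-DM, built from H2-DMa with H2-DMb1 or H2-DMb2, exchanges the remaining invariant chain fragment for antigen peptides, and H2-DO, built from H2-Oa and H2-Ob, restrains H2-DM, chiefly in B cells. Ciita is the main coactivator of class II genes. It is active in B cells, dendritic cells and other professional antigen-presenting cells and is induced by interferon gamma elsewhere, including keratinocytes.

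CIITA does not bind DNA itself but is recruited by a complex on the X box and the Y box of class II promoters, in which RFX proteins occupy the X box and NF-Y the Y box. RefSeq promoters (GRCm38.p6) were at hand for H2-Aa, H2-Eb1, H2-DMa, H2-DMb1, H2-DMb2, H2-Oa and H2-Ob. Each ran from 250 bases before to 50 bases after the gene start. The letters ATTGG, the Y box core, stood on the gene strand in at least 1 promoter of each of these genes (H2-DMa has 2 entries, of which 1 holds it), against 22.1% of 32851 mouse promoters of the same length. The letters AGNAAC, found in the X box, with ATTGG starting 30 to 40 bases further on, stood on the gene strand of H2-Eb1, H2-DMb1, H2-Oa and H2-Ob, against 0.551% of all promoters searched on both strands. Matches are a description of the letters and not of bound sites. Windows of 60 bases are given 5′ to 3′ on the gene strand, with ATTGG and AGNAAC in capitals, because they show the shared layout of the promoters and how closely the pair of H2-DMb genes resemble each other.
H2-Aa, chr17:34287862-34287921, minus strand: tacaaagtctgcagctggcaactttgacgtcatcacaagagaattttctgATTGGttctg
H2-Eb1, chr17:34305758-34305817, plus strand: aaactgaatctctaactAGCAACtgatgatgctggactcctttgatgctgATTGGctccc
H2-DMb1, chr17:34153080-34153139, plus strand: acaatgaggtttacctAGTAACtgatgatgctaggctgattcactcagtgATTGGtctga
H2-DMb2, chr17:34145109-34145168, plus strand: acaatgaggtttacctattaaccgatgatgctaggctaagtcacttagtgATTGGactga
H2-Oa, chr17:34092286-34092345, plus strand: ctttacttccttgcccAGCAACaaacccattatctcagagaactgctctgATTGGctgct
H2-Ob, chr17:34238798-34238857, plus strand: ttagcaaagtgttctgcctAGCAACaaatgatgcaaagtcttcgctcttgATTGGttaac
The H2-DMb1 and H2-DMb2 windows shared 54 of 60 bases. Their transcripts were 95.3% identical over 1042 of 1093 aligned bases, so reads could be split between these genes in counting and their separate values are uncertain.

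Library totals ran from 40499078 to 56511276 counts in skin and from 27599809 to 36428435 counts in nodes. Levels are given as CPM, counts scaled to the normalised library size. The tissue labels were matched by markers, since keratinocyte markers summed to between 7803 and 22665 CPM in every skin library and to at most 2.51 CPM in nodes. The L skin libraries also differed from WT in tissue make-up, with hair shaft markers at 1422 to 4567 CPM against at most 1.73 CPM, and skeletal muscle markers at 19.0 to 5673 CPM against 19649 to 28505 CPM. Their part in the skin results was not tested. With no body site per library, differences of lesion and of site cannot be told apart. In bulk tissue, fewer cells of a type and less RNA per cell cannot be told apart.

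Levels between genes were compared per kilobase of exon, within each table. The order describes counted reads. How the difference between the BALB/c H2 haplotype and the reference bears on the counts of each gene was not tested. In WT skin Cd74 stood highest at 405 ± 83.7 CPM per kb (SD, n = 3), above H2-Ab1 at 142 ± 21.0, H2-Aa at 130 ± 23.9 and H2-Eb1 at 83.6 ± 15.0 CPM per kb. The H2-DM genes followed at 12.3 ± 1.17 CPM per kb for H2-DMa, 10.8 ± 1.12 for H2-DMb1 and 9.07 ± 0.653 for H2-DMb2. Ciita at 1.36 ± 0.164 CPM per kb, H2-Oa at 0.637 ± 0.18 and H2-Ob at 0.274 ± 0.0818 CPM per kb came last. The libraries of the neighbours H2-Ab1 and H2-Aa overlapped, as did those of H2-DMa and H2-DMb1, whereas those of H2-DMb1 and H2-DMb2 did not.
In WT nodes without UVB the same 4 genes led, but H2-Aa stood above H2-Ab1 with no overlap of their libraries, with Cd74 at 2181 ± 392 CPM per kb (SD, n = 3), H2-Aa at 679 ± 131, H2-Ab1 at 443 ± 64.1 and H2-Eb1 at 311 ± 43.8 CPM per kb. H2-DMb2 followed at 153 ± 22.7 CPM per kb and H2-DMb1 was the lowest of the 10 at 13.6 ± 1.29 CPM per kb. H2-Ob at 47.1 ± 4.66 CPM per kb, H2-Oa at 44.4 ± 7.69, H2-DMa at 35.7 ± 5.38 and Ciita at 27.0 ± 4.31 stood between them, and the libraries of each overlapped with those of the next in this order. The tables were normalised separately, so no test was made between tissues.

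**Figure D1:**
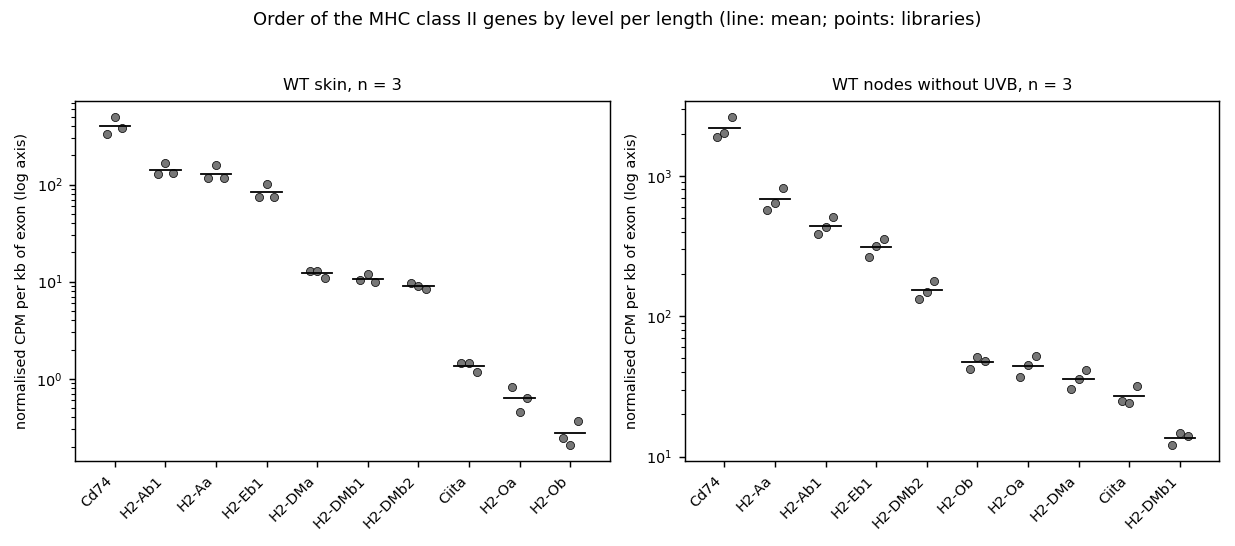
Normalised CPM per kb of exon (log axis) for the 10 genes in WT skin and in WT nodes without UVB, each ordered by its mean, with points for the 3 libraries and a line for the mean. H2-Oa and H2-Ob are the lowest genes in skin, and H2-DMb1 is the lowest in nodes.

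In skin, the question was whether the class II genes differ between WT, NL and L skin. The chains of the classical molecules were high in 3 of the 4 L libraries and low in the other. H2-Aa measured 131, 178 and 131 CPM in WT replicates 8, 9 and 10, 158 and 172 CPM in NL replicates 2 and 3, and 271, 256, 350 and 116 CPM in L replicates 4, 5, 6 and 7. H2-Ab1 measured 154, 201 and 160 CPM in WT, 185 and 198 CPM in NL, and 340, 348, 451 and 129 CPM in L, in the same order of replicates. H2-Eb1 gave 125, 169 and 125 CPM in WT, 154 and 156 CPM in NL, and 272, 279, 398 and 113 CPM in L. For each of these genes L replicates 4, 5 and 6 lay above every WT and NL library, whereas L replicate 7 lay below all of them.

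Cd74 showed the same arrangement at a higher level. It reached 475, 705 and 542 CPM in WT, 615 and 622 CPM in NL, and 1016, 930, 1390 and 386 CPM in L. Ciita, their coactivator, measured 11.9, 12.0 and 9.62 CPM in WT, 12.0 and 12.5 CPM in NL, and 22.7, 18.5, 35.4 and 8.22 CPM in L. L replicate 6 was thus the highest and L replicate 7 the lowest library for the regulator as for the chains.

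Among the H2-DM genes, which load peptide, H2-DMa measured 34.6, 34.6 and 29.2 CPM in WT, 31.6 and 39.0 CPM in NL, and 46.8, 42.8, 60.6 and 20.1 CPM in L. H2-DMb1 gave 14.6, 16.9 and 13.9 CPM in WT, 16.4 and 20.3 CPM in NL, and 27.0, 24.2, 35.8 and 8.94 CPM in L. H2-DMb2 gave 17.0, 15.9 and 14.7 CPM in WT, 16.3 and 20.4 CPM in NL, and 30.2, 26.7, 32.2 and 10.7 CPM in L. The order of the L libraries was again 6 highest and 7 lowest.
The H2-DO genes had the fewest reads of the 10, with 21 to 72 counts per library for H2-Oa and 31 to 115 for H2-Ob. H2-Oa measured 0.890, 0.499 and 0.692 CPM in WT, 0.994 and 1.37 CPM in NL, and 1.31, 1.48, 0.881 and 0.378 CPM in L. H2-Ob measured 0.867, 0.736 and 1.29 CPM in WT, 1.13 and 1.13 CPM in NL, and 1.20, 2.12, 2.53 and 0.775 CPM in L. In all, L replicates 4, 5 and 6 lay above every WT and NL library in 8 of the 10 genes, the exceptions being H2-Oa and H2-Ob, and L replicate 7 was the lowest of the 9 skin libraries in 9 genes, the exception being H2-Ob.

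**Figure D2:**
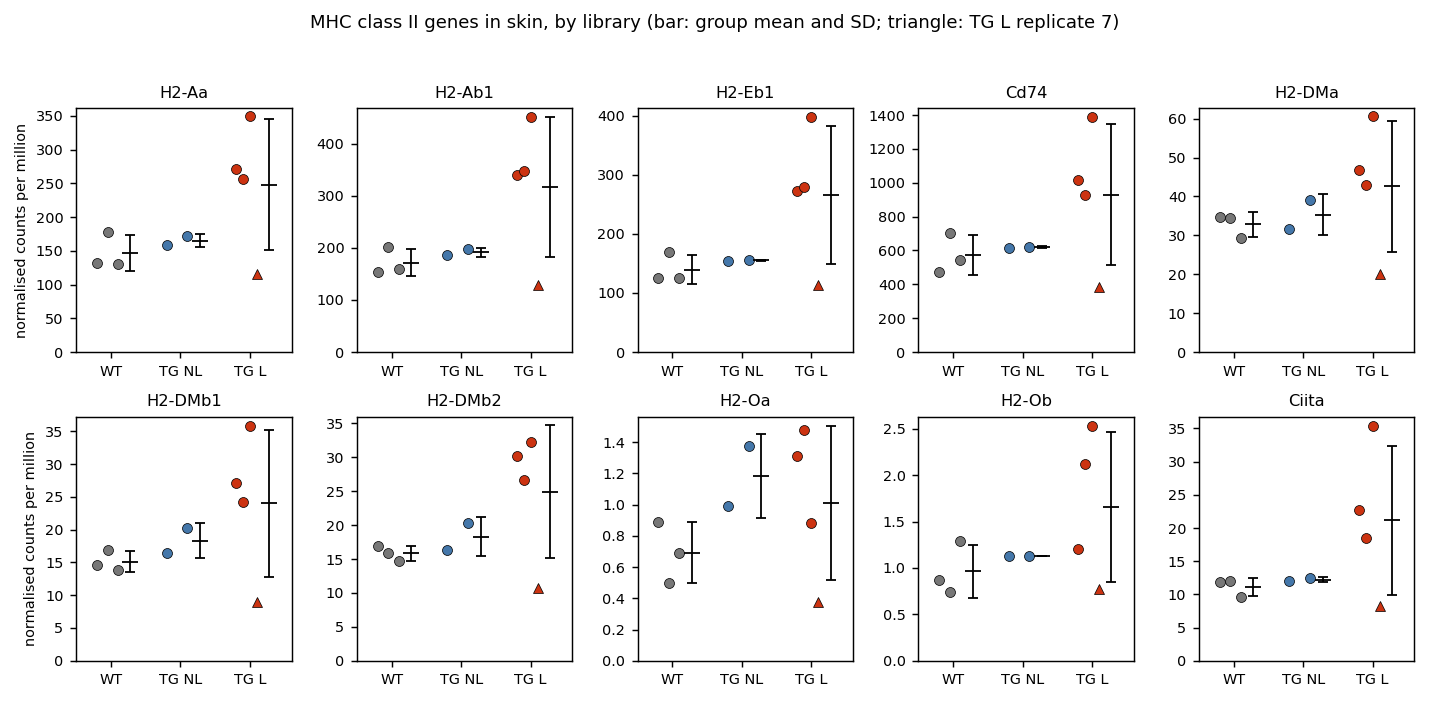
Normalised CPM (y axis, from 0) of each of the 10 genes in WT, TG NL and TG L skin, with a point for each library, bars for the group mean and SD, and a triangle for L replicate 7. The other 3 L libraries sit above the WT and NL libraries in 8 genes, and the triangle is the lowest point in every gene but H2-Ob.

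L and WT skin were compared in edgeR's quasi-likelihood test with Benjamini-Hochberg adjustment over all genes, with all 9 libraries in the fit. At an adjusted p under 0.05, 0 of the 10 class II genes were called in edgeR, while 43.1% of all tested genes were. At an unadjusted p under 0.05 there were 3, H2-Aa, H2-Ab1 and H2-Eb1, against 51.7% of all genes, and DESeq2 called 2, H2-Ab1 and H2-Eb1, against 38.6% of the genes it tested. The log2 fold changes were positive for all 10 genes, with a median of 0.73 against 0.06 over all tested genes and standard errors from 0.31 to 0.47.
H2-Eb1 had the largest, 0.93 ± 0.36 (SE; adjusted p = 0.0662, edgeR), followed by Ciita at 0.92 ± 0.41 (adjusted p = 0.0994, edgeR) and H2-Ab1 at 0.88 ± 0.36 (adjusted p = 0.0763, edgeR). H2-DMa had the smallest, 0.38 ± 0.31 (adjusted p = 0.364, edgeR), with a 95% interval from -0.34 to 1.09. The groups overlapped for every gene, against 49.4% of all tested genes whose L and WT libraries did not overlap.

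Leaving out each library in turn was a planned setting for the 10 genes. Without L replicate 7, 8 of the 10 genes were called higher in L skin than in WT in the same test, against 23.1% of all genes called higher and 42.5% called in either direction. Their log2 fold changes then rose to 1.18 ± 0.19 for H2-Eb1 (adjusted p = 0.00202, edgeR), 1.15 ± 0.16 for H2-Ab1 (adjusted p = 0.00115, edgeR) and 1.19 ± 0.23 for Ciita (adjusted p = 0.00532, edgeR). H2-Ob at 1.02 ± 0.37 (adjusted p = 0.0558, edgeR) and H2-Oa at 0.82 ± 0.36 (adjusted p = 0.101, edgeR) did not pass. L replicate 7 was the lowest skin library in 9 of the 10 genes, so leaving it out raises the L values by selection. The p-values without it are therefore no independent support for a rise. They show only that the call on the class II genes in lesional skin turned on 1 library. Its own marker sums stood apart as well, with the lowest keratinocyte sum of all skin libraries, 7803 CPM against 16642 to 22665 CPM in the other L libraries, and the highest stromal and endothelial sum, 3761 CPM against 1286 to 1903 CPM. The part of this make-up in the low class II levels was not tested.

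L against NL skin compared lesions with nonlesional skin, both from TG mice. No gene of the 10 passed, against 25.0% of all tested genes, none had an unadjusted p under 0.05 in edgeR (39.0% of all genes did), and DESeq2 called 0 of them against 28.0% of its genes. The median log2 fold change was 0.57, against 0.03 over all tested genes, and the largest value was 0.79 ± 0.47 for Ciita (adjusted p = 0.245, edgeR). H2-Oa was the only gene with a negative value, -0.23 ± 0.52. Without L replicate 7, 7 of the genes were higher in L skin, against 13.4% of all genes called higher and 24.7% in either direction, the exceptions being H2-DMa, H2-Oa and H2-Ob. H2-Ab1 then stood at 0.99 ± 0.18 (adjusted p = 0.00779, edgeR). These calls, too, were made without the library that was lowest in 9 of the genes, and have the same limit.

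**Figure D3:**
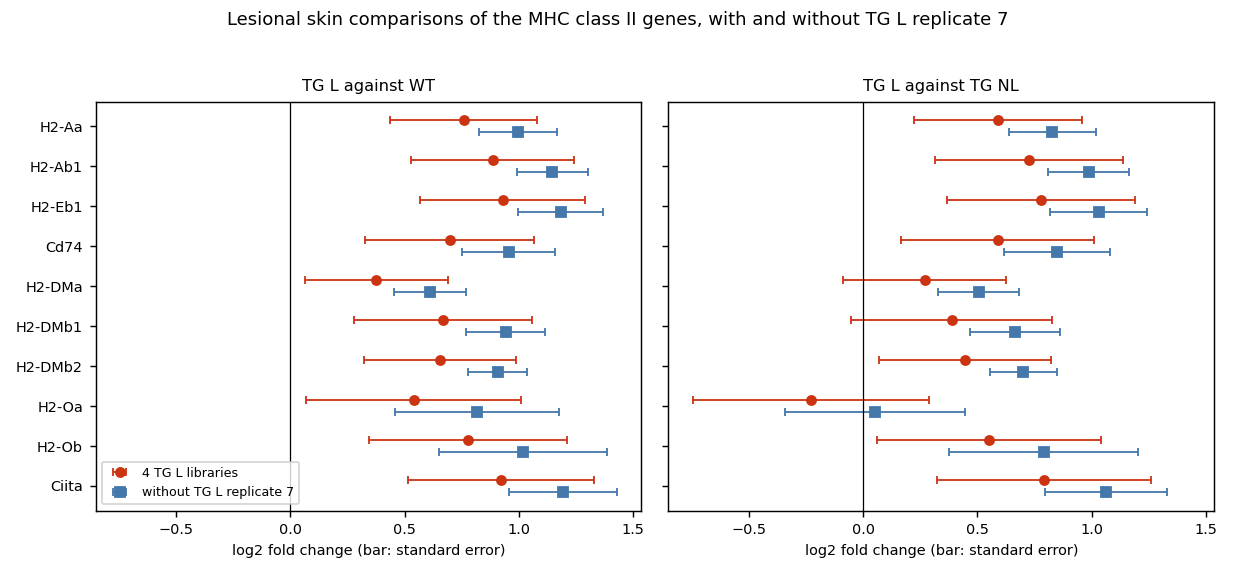
Log2 fold changes (x axis) with their standard errors for the 10 genes in L against WT skin and L against NL skin, from the fit with all 4 L libraries (circles) and from the fit without L replicate 7 (squares). Every value lies above 0 except that of H2-Oa against NL skin with all 4 L libraries, and leaving out the library shortens the error bars.

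NL against WT skin asked about nonlesional TG skin of the same age as the lesions. No class II gene passed in edgeR, where 0% of all genes passed. An unadjusted p under 0.05 was reached by 7.67% of all genes and by 0 of the 10, and DESeq2 called 0.309% of its genes and 0 of the 10. The log2 fold changes lay between 0.11 and 0.77, with a median of 0.16 against -0.001 over all tested genes. The largest was that of H2-Oa, 0.77 ± 0.55 (adjusted p = 0.759, edgeR), with a 95% interval from -0.48 to 2.01. H2-Oa was also the only gene whose NL and WT libraries did not overlap, as 35.0% of all tested genes did not. Each skin group entered 2 of the 3 comparisons, which therefore share libraries and are not independent.

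The genes upstream of Ciita gave a mixed picture in L against WT skin. Of 9 genes that lead from interferon gamma to Ciita, 3 rose and 2 fell, with a median log2 fold change of -0.11, while 4386 of all 19101 tested genes rose and 3851 fell. Ifng, which encodes interferon gamma, measured at most 0.114 CPM in WT skin and 2.13, 0.839, 4.47 and 0.0901 CPM in L replicates 4, 5, 6 and 7 (log2 fold change 4.67 ± 1.51, adjusted p = 0.0356, edgeR). Among the L libraries replicate 6 was highest and replicate 7 lowest for Ifng, as for Ciita. The Ifng values of WT skin and of L replicate 7 rest on few reads. The part of Ifng in the class II levels was not tested. Socs1, an inhibitor of this pathway, also rose (1.83 ± 0.40, adjusted p = 0.00646, edgeR). Ifngr1, a receptor chain, fell by 0.86 ± 0.19 (adjusted p = 0.00778, edgeR), and the kinase gene Jak1 fell by 0.72 ± 0.16 (adjusted p = 0.00665, edgeR).

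The genes of the promoter complex itself, Rfx5, Rfxank, Rfxap, Nfya, Nfyb, Nfyc and Creb1, with the class I coactivator Nlrc5, gave 0 calls of 8 in edgeR against either WT or NL skin, with a median log2 fold change of 0.10 against WT. Rfx5 measured 11.1 to 14.3 CPM in WT skin and 12.3 to 18.2 CPM in L skin. Of 12 genes that process antigen for class II, 4 rose and none fell in L against WT skin. They were the endosomal proteases Ctsd (0.75 ± 0.18), Ctsh (0.69 ± 0.16) and Ctsl (0.58 ± 0.17) and the lysosomal thiol reductase Ifi30 (0.74 ± 0.19), with adjusted p from edgeR of 0.00906, 0.00802, 0.0208 and 0.0135. Of 8 genes of costimulation, inhibition and receptors for class II, 5 rose and none fell. They were Cd274 and Pdcd1lg2, which encode inhibitory ligands, Cd40 on antigen-presenting cells, and Cd4 and Lag3, which bind class II. Cd80, Cd86 and Icosl, the other costimulatory genes of the list, did not pass. Cd4 measured 1.55 to 3.37 CPM in WT and 7.03, 8.51, 13.2 and 5.69 CPM in L (1.86 ± 0.40, adjusted p = 0.00639, edgeR). These shares are to be read beside the 4386 of 19101 genes that rose overall. Without L replicate 7, 4 of 9 rose upstream of Ciita, 1 of 8 in the promoter complex and 4 of 12 in processing. Of the 8 genes of costimulation, inhibition and class II receptors, 5 rose in that fit, where 23.1% of all genes did. In L against NL skin 1 of 9 rose upstream of Ciita and 4 of 12 in processing, or 3 and 5 without L replicate 7. Of the 8 genes of costimulation, inhibition and class II receptors, 2 rose, or 3 without L replicate 7. Over all genes 2519 of 19101 rose against NL skin, or 13.4% without L replicate 7. Without NL replicate 2 or 3 none upstream of Ciita or in processing passed against NL skin. Against WT, leaving out each library in turn gave 1 to 4 of 9 that rose upstream of Ciita and 2 to 4 of 12 in processing. Of the 8 genes of costimulation, inhibition and class II receptors, 3 to 5 rose. The lowest counts came without WT replicate 8, 9 or 10. Ifng passed in 4 of these 9 fits, not without WT replicate 8, 9 or 10 or L replicate 4 or 6 (highest adjusted p = 0.102, edgeR). In edgeR no gene of any list passed in NL against WT skin. These lists were chosen with earlier results of these data known.

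Markers of cells that carry class II were measured beside them. Of 11 dendritic cell markers, 5 rose and 2 fell in L against WT skin, and their sum was 41.6 to 75.7 CPM in WT and 71.7 to 92.4 CPM in L, with 78.7 CPM in L replicate 7. The 3 Langerhans cell markers summed to 257 to 278 CPM in WT and 330 to 476 CPM in L, where Epcam, also a keratinocyte gene, took the largest share in 3 of the 4 libraries. Cd207, the most specific of the 3, measured 26.9 to 32.4 CPM in WT and 13.4 CPM in L replicate 7, its lowest value, with a highest value of 46.8 CPM in L replicate 5. Macrophage and monocyte markers summed to 878 to 2188 CPM in WT and 716 to 1991 CPM in L, with 2 of 12 higher, or 1 of 12 without L replicate 7. B cell markers summed to 12.8 to 16.3 CPM in WT and 13.9 to 29.8 CPM in L, mostly Cd72, and 3 of 10 tested were higher, namely Blk, Cd22 and Fcrla, or 0 of 10 without WT replicate 9 and 1 of 10 without WT replicate 8 or L replicate 4. T cell markers summed to 37.3 to 51.1 CPM in WT and 83.4, 104, 90.2 and 44.0 CPM in L, with 6 of 9 higher. These counts are to be read beside the 4386 of 19101 genes that rose and the 3851 that fell in L against WT skin. The part of these cells in the class II levels was not tested.

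Across the 9 skin libraries the class II genes moved closely together. As a description, with libraries that share groups and tissue make-up, the median Pearson correlation over the 45 pairs was 0.93 on log2 CPM, from 0.50 for H2-Eb1 with H2-Oa to 0.99 for H2-Aa with H2-Ab1. The gene most like the mean of the 10, among 14996 others, was H2-Ea, the partner chain of H2-Eb1, with r = 0.996 over 9 libraries. H2-Ea measured 182 to 207 CPM in WT, 196 and 229 CPM in NL, and 321, 312, 383 and 132 CPM in L. Cept1, H2-M3, Slc2a1, Prr13, Itgax, Tap2 and H2-T10 followed, with r from 0.971 to 0.942.

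In the lymph nodes the class II genes were abundant and their levels overlapped between most groups. Cd74 measured 2689, 2854 and 3721 CPM in WT replicates 1, 2 and 3, 2938, 2412 and 2685 CPM in WT UVB replicates 7, 8 and 9, 3472, 1676 and 2868 CPM in TG replicates 4, 5 and 6, and 2389, 2567 and 3987 CPM in TG UVB replicates 10, 11 and 12. H2-Aa measured 642, 727 and 929 CPM in WT, 633, 508 and 590 CPM in WT UVB, 820, 394 and 636 CPM in TG, and 500, 522 and 797 CPM in TG UVB, in the same order. Ciita measured 205, 198 and 263 CPM in WT, 257, 190 and 237 CPM in WT UVB, 253, 130 and 204 CPM in TG, and 222, 199 and 180 CPM in TG UVB. H2-Ab1, H2-Eb1, H2-DMa and H2-DMb2 ran in parallel, from 306 to 620, 308 to 605, 56.9 to 110 and 150 to 311 CPM over the 12 libraries. H2-Oa, the alpha chain of H2-DO, ran from 28.3 to 56.5 CPM.
TG replicate 5 was the lowest of the 12 node libraries in all 10 genes. Its B cell markers summed to 1822 CPM against 2728 to 3500 CPM in the other node libraries, and its macrophage and monocyte markers to 742 CPM against 363 to 559 CPM. The part of this make-up in its class II levels was not tested.

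**Figure D4:**
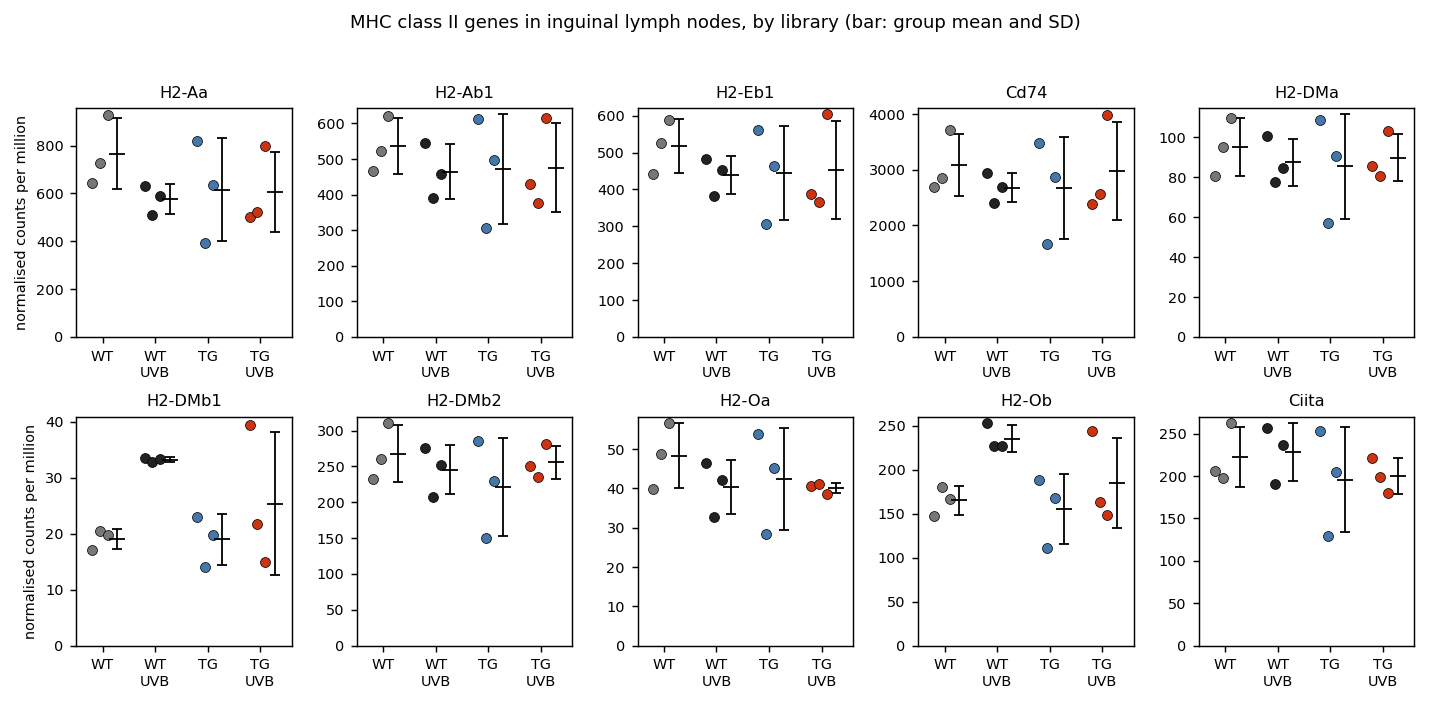
Normalised CPM (y axis, from 0) of each of the 10 genes in the nodes of WT and TG mice without and with UVB, with a point for each of the 3 libraries per group and bars for the mean and SD. H2-DMb1 and H2-Ob are the genes in which the 3 WT UVB libraries stand above the 3 WT libraries, and the TG libraries spread widely.

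UVB in WT nodes asked how the draining node changes after irradiation of normal skin. H2-DMb1, a beta chain of H2-DM, measured 17.1, 20.5 and 19.7 CPM in WT and 33.5, 32.7 and 33.4 CPM in WT UVB. H2-Ob, the beta chain of H2-DO, measured 148, 181 and 167 CPM in WT and 253, 227 and 227 CPM in WT UVB. The irradiated and unirradiated libraries did not overlap for either gene, nor for H2-Aa, which was lower after UVB, and 37.1% of all tested genes likewise did not overlap.
In edgeR, 0 of the 10 genes passed, against 4.98% of all genes. An unadjusted p under 0.05 was reached by 2, H2-DMb1 and H2-Ob, against 26.3% of all genes, and DESeq2 called 1, H2-DMb1, against 14.3% of its genes. The log2 fold change of H2-DMb1 was 0.80 ± 0.29 (adjusted p = 0.119, edgeR) and that of H2-Ob 0.51 ± 0.20 (adjusted p = 0.141, edgeR). In a fit of only the WT libraries both passed, at an adjusted p of 0.00230 and 0.00722 in edgeR, against 15.9% of all genes in that fit. H2-Aa had the lowest value, -0.41 ± 0.26 (adjusted p = 0.332, edgeR), and 7 of the 10 genes had negative values, with a median of -0.17 against -0.005 over all tested genes. When the counts of H2-DMb1 and H2-DMb2 were added as 1 gene, the log2 fold change was -0.04 (adjusted p = 0.915, edgeR), because H2-DMb2 held most of the reads, with 232, 260 and 311 CPM in WT and 276, 208 and 252 CPM in WT UVB.

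In TG nodes the values of the same genes after UVB were spread over the libraries. H2-DMb1 measured 23.0, 14.1 and 19.8 CPM without UVB and 39.5, 21.8 and 14.9 CPM after it, and H2-Ob measured 188, 111 and 168 CPM without and 244, 163 and 149 CPM after. Their log2 fold changes were 0.42 ± 0.29 and 0.25 ± 0.20 (adjusted p = 0.694 and 0.743, edgeR). Among the TG UVB libraries both genes were highest in replicate 10 and lowest in replicate 12, and all 10 class II genes overlapped between the groups, while 13.3% of all genes did not. No class II gene passed in edgeR, where 0% of all genes passed. An unadjusted p under 0.05 was reached by 9.32% of all genes and by 0 of the 10, and DESeq2 called 0.845% of its genes and 0 of the 10. The test of the genotype by UVB interaction gave -0.38 ± 0.41 for H2-DMb1 (95% interval -1.28 to 0.52) and -0.26 ± 0.29 for H2-Ob, with adjusted p from edgeR of 0.878 and 0.880. In that test 0% of all genes passed, an unadjusted p under 0.05 was reached by 5.45% of all genes and by 0 of the 10, and DESeq2 called 0.0180% of its genes and 0 of the 10.

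TG against WT nodes gave no call in either condition. Without UVB all 10 log2 fold changes were negative, from -0.31 for H2-Aa to -0.01 for H2-DMb1, with a median of -0.19 against -0.004 over all tested genes. In edgeR 0% of all genes passed. An unadjusted p under 0.05 was reached by 3.39% of all genes and by 0 of the 10, and DESeq2 called 0.00720% of its genes and 0 of the 10. The groups overlapped for all 10, while 10.5% of all genes did not overlap. Without TG replicate 5, the median became 0.03 and 7 of the 10 values were positive. After UVB the values lay between -0.39 and 0.15, with a median of 0.03 against 0.006 over all tested genes and adjusted p from 0.759 to 0.995 in edgeR. There 0% of all genes passed, an unadjusted p under 0.05 was reached by 6.99% of all genes and by 0 of the 10, and DESeq2 called 0.124% of its genes and 0 of the 10. The groups again overlapped for all 10, while 9.71% of all genes did not overlap. Each node group entered 2 of these 4 comparisons, which therefore share libraries.

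Ratios within a library do not depend on the scaling. H2-DMb1 over H2-DMb2 was 0.838 to 1.11 in the 9 skin libraries, so skin held nearly equal reads of both beta chains. In nodes it was 0.0634 to 0.0789 in WT, 0.121 to 0.157 in WT UVB, 0.0805 to 0.0945 in TG and 0.0529 to 0.158 in TG UVB. H2-Ob over H2-DMa, the inhibitor's beta chain against the loader's alpha chain, was 0.0213 to 0.0495 in skin and 1.45 to 2.93 in nodes. H2-Ob over H2-Oa, the chains of H2-DO, was 2.96 to 3.72 in WT nodes and 5.39 to 6.94 in WT UVB nodes, but 3.50 to 3.93 in TG and 3.85 to 6.01 in TG UVB nodes, which overlapped. Cd74 over H2-Aa was 3.93 to 4.19 in WT and 4.55 to 4.75 in WT UVB nodes. It was 4.24 to 4.51 in TG and 4.78 to 5.00 in TG UVB nodes. The irradiated libraries thus lay above the others within each genotype and the TG libraries above the WT libraries within each treatment. No other ratio computed separated the libraries in all these comparisons. H2-Aa over H2-Ab1 in WT did not overlap with WT UVB or TG nodes. It was 1.277 to 1.339 in TG and 1.160 to 1.382 in TG UVB nodes, which overlapped. H2-DMa over H2-Oa overlapped in each comparison. Of single genes, 9.71% to 37.1% did not overlap in these comparisons. The share for other gene pairs was not computed. These ratios are a description with no test.

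**Figure D5:**
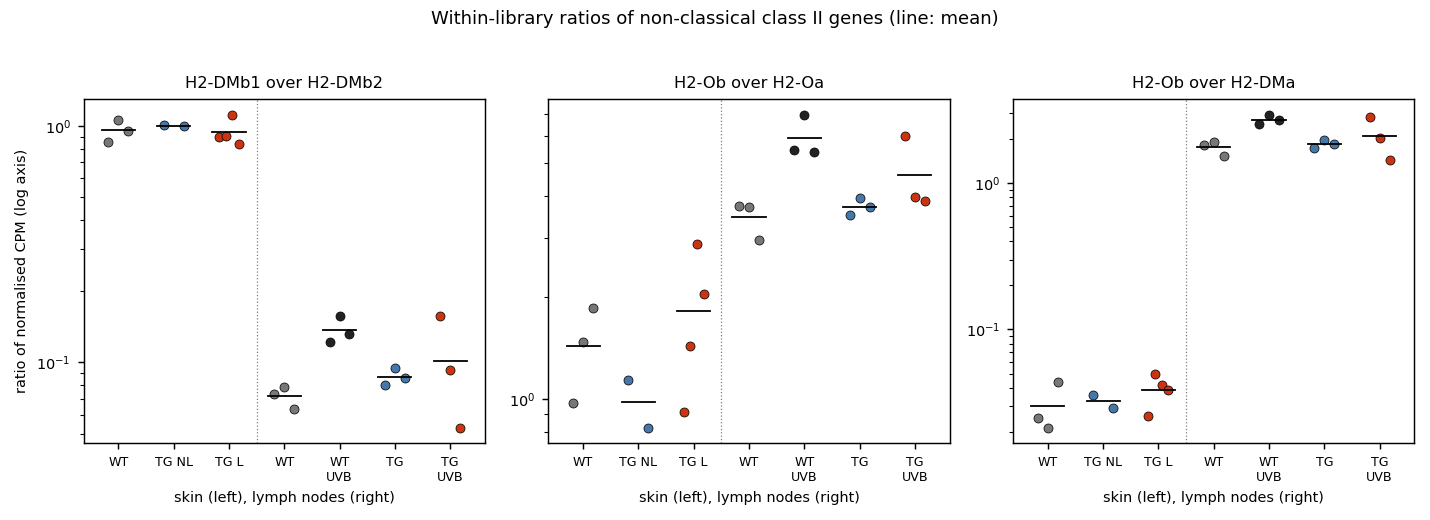
Ratio of normalised CPM (log axis) within each library for H2-DMb1 over H2-DMb2, H2-Ob over H2-Oa and H2-Ob over H2-DMa, by group in skin (left of the dotted line) and nodes (right), with a line for the mean. H2-DMb1 over H2-DMb2 lies near 1 in skin and between 0.0529 and 0.158 in nodes.

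Upstream of Ciita, 3 of 9 genes rose and none fell in WT nodes after UVB, with a median log2 fold change of 0.20, beside 4.98% of all genes called in either direction. They were Ifng (1.51 ± 0.35, adjusted p = 0.0343, edgeR), Irf1, a transcription factor that acts on the Ciita promoter (0.53 ± 0.11, adjusted p = 0.0303, edgeR), and Socs1 (0.56 ± 0.13, adjusted p = 0.0325, edgeR). Irf1 measured 219, 240 and 186 CPM in WT and 283, 343 and 308 CPM in WT UVB. Nfya, a subunit of NF-Y, was the one gene of 8 in the promoter complex list that rose (0.40 ± 0.08, adjusted p = 0.0287, edgeR), from 77.9 to 90.4 CPM in WT to 106 to 111 CPM in WT UVB. These calls rested on single libraries, since none of Ifng, Irf1, Socs1 and Nfya passed without WT replicate 3 or WT UVB replicate 8 or 9 (highest adjusted p = 0.158, edgeR), and without WT UVB replicate 8 no gene of the whole table did. Leaving out each library in turn, they passed in 6, 7, 4 and 6 of 12 fits. Ciita itself had a log2 fold change of 0.04 ± 0.21. In edgeR, no gene passed of the 12 for antigen processing or of the 8 for costimulation, inhibition and class II receptors.
Among the cells that carry class II, B cell markers summed to 2854 to 3397 CPM in WT and 2728 to 3406 CPM in WT UVB nodes, with 0 of 11 called. Dendritic cell markers summed to 621 to 639 CPM and 454 to 504 CPM, with only Ccr7, a homing receptor, lower (fell by 0.43 ± 0.09, adjusted p = 0.0261, edgeR). That call was lost without WT replicate 3 or WT UVB replicate 8 or 9. Ccr7 held most of both sums, with a mean of 471 CPM in WT and 349 CPM in WT UVB. Bulk counts do not show which cells the Ccr7 reads came from, so its fall is not one of dendritic cells as such. The median log2 fold change of the 11 dendritic cell markers was 0.31, so the lower sum does not describe most of them. T cell markers summed to 3235 to 3375 CPM and 2523 to 2883 CPM, with 3 of 9 lower, or 0 to 6 of 9 leaving out each library in turn, with 0 without WT replicate 2 or 3 or any of the WT UVB replicates. Over all genes, 472 of 16173 rose and 333 fell in WT nodes after UVB. How these cells bear on the class II levels was not tested.

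Over the 12 node libraries most class II genes varied together, with a median Pearson correlation of 0.79 over 45 pairs as a description. H2-DMb1 and H2-Ob stood apart from the rest, with r = 0.20 and 0.46 to the mean of the other 9 genes, but had r = 0.95 with each other. H2-Ab1 and H2-Eb1 had the highest r, 0.98. The genes most like the mean of the 10, among 12823 others, were Pxdc1 with r = 0.972 over 12 libraries, the B cell genes Fcrla (0.959) and Cd79b (0.951), Plcg2, Igkv10-96, Cyp4f18, the immunoglobulin D heavy chain gene Ighd (0.940) and H2-Ea (0.937).
H2-Ea measured 373 to 771 CPM over the node libraries. Reads of I-E alpha were thus present in every library, as the BALB/c background has it, whereas the C57BL/6 reference carries a null H2-Ea. Glo1, on chromosome 17 near the H2 complex and not one of the 10, measured 99.3 to 103 CPM in WT skin, 102 to 108 CPM in NL and 88.6 to 138 CPM in L. Its log2 fold changes against WT skin were 0.06 ± 0.16 for NL and 0.18 ± 0.14 for L (adjusted p = 0.937 and 0.318, edgeR). In nodes it measured 65.1 to 79.6 CPM in WT and 95.5 to 109 CPM in TG over both conditions. The log2 fold changes in nodes were 0.43 ± 0.08 without UVB and 0.45 ± 0.08 after it. They did not pass in edgeR (adjusted p = 1 and 0.673) but passed in DESeq2 (adjusted p = 0.0307 and 0.00601).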

How the data were processed

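Poly-A RNA libraries of skin and inguinal lymph nodes were sequenced, and per the labels the reads were trimmed with cutadapt 4.8, aligned to GRCm38 with STAR 2.7.8a and counted with RSEM 1.3.3; the annotation release was not given in the sources used here. The authors deposited 1 table of RSEM expected counts per tissue, not normalised and with whole-number values, in which 4 rows that name no mouse gene were left out here. Groups came from the labels, which give 1 batch. Genes were filtered with edgeR's filterByExpr (minimum count 10) and tested with edgeR 4.0.16 (TMM, robust quasi-likelihood) in 1 fit per tissue, at an adjusted p under 0.05; DESeq2 1.42.0, the tool of the study, was an alternative. Standard errors were taken from the F statistic. The script was tested on simulated data. Total counts were 40499078 to 56511276 in skin and 27599809 to 36428435 in nodes, so that the 3 counts that a count of 0 allows correspond to at most 1.09e-05 percent of a library, for counting error only. No pair of libraries in a group agreed within sampling noise. CPM per kb used exons of GENCODE M21 basic transcripts, and correlations used log2(CPM + 0.5). The genes, lists and tests were chosen with earlier results of these data known. By the rule for named genes, all 10 genes were named, list genes where they passed, and the 8 most correlated genes per tissue with a mean of at least 1 CPM. Promoter windows and motif shares came from RefSeq GRCm38.p6. Values of some single genes in the lists are not reported here. Leaving out each library for the list genes was added after seeing the data.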

Additional observations from a re-analysis of the deposited data

How the results depend on the processing

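No paired analysis was possible because the labels name no mouse for any library. The number of class II genes called was 0 in every comparison of the main test and under other scale factors, other filters and non-robust estimation. DESeq2 called 2 genes in L against WT skin and 1 after UVB in WT nodes, where the fit of only the compared groups called 2. Leaving out single libraries gave 0 to 8 calls in L against WT skin and 0 to 7 in L against NL skin, in both cases above 0 only without L replicate 7, and 0 to 1 after UVB in WT nodes, where H2-DMb1 passed without TG UVB replicate 10 or 12. Only the last is a change from libraries outside the comparison, which enter through the shared spread. Some log2 fold changes changed sign, and none of these passed the test in either direction. With upper-quartile factors the value became 0.0077 for H2-DMb1 in TG against WT nodes without UVB, 0.00010 for H2-Oa in TG against WT nodes after UVB, and -0.019 for H2-Ab1 and -0.00020 for H2-Eb1 after UVB in TG nodes, where the fit of only the compared groups gave -0.0033 for H2-Ab1. Adding H2-DMb1 to H2-DMb2 gave 0.012 in TG against WT nodes after UVB, -0.042 after UVB in WT nodes and 0.27 for the interaction. Leaving out single libraries, the values that changed sign ranged as follows. In L against NL skin they ran from -0.46 to 0.052 for H2-Oa. In NL against WT skin they ran from -0.012 to 0.28 for Cd74 and -0.081 to 0.25 for H2-DMa. In TG against WT nodes without UVB they ran from -0.42 to 0.043 for H2-Ab1, -0.45 to 0.032 for Cd74, -0.38 to 0.062 for H2-DMa, -0.18 to 0.16 for H2-DMb1, -0.40 to 0.028 for H2-Oa, -0.25 to 0.10 for H2-Ob and -0.42 to 0.037 for Ciita. In TG against WT nodes after UVB they ran from -0.17 to 0.22 for H2-Aa, -0.20 to 0.19 for H2-Ab1, -0.22 to 0.20 for H2-Eb1, -0.11 to 0.32 for Cd74, -0.073 to 0.15 for H2-DMa, -0.048 to 0.15 for H2-DMb2 and -0.14 to 0.10 for H2-Oa. In WT nodes after UVB they ran from -0.055 to 0.16 for Ciita. In TG nodes after UVB they ran from -0.29 to 0.23 for H2-Aa, -0.24 to 0.24 for H2-Ab1, -0.25 to 0.23 for H2-Eb1, -0.13 to 0.39 for Cd74, -0.16 to 0.28 for H2-DMa, -0.051 to 0.67 for H2-DMb1, -0.016 to 0.43 for H2-DMb2, -0.31 to 0.12 for H2-Oa and -0.20 to 0.26 for Ciita. In the interaction they ran from -0.0090 to 0.47 for H2-Ab1, -0.0096 to 0.43 for H2-DMa, -0.023 to 0.41 for H2-Oa and -0.21 to 0.24 for Ciita. The cause of these changes was not tested.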
